A study of Mus musculus with 26 samples.

Results

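The cells described here are the Her2-positive, EpCAM-negative cells of E-A14 mammary tumours that had grown in mice with their T cells intact, set against the same line in culture. They were taken by the sample titles: 6 libraries of sorted tumour cells and 2 libraries of the cultured line, 8 of the 26 libraries of the series. E-A14 is a single mouse mammary tumour line that expresses Her2 from an activated rat Neu sequence, which the count table lists as RatActivatedNeu. Mice of the FVB/N strain, 6 to 8 weeks old, received the cells in the fourth mammary fat pad. These mice received 100 µg of rat IgG2a and 100 µg of rat IgG2b 2 times a week as isotype control, from 2 weeks before implantation, and the tumours were collected on day 47. Live cells without surface CD90, CD105 or CD45 were sorted after digestion with collagenase and DNase. Sorted fractions used for comparison were the EpCAM-positive cells of control tumours, also from day 47, and the EpCAM-negative cells of tumours depleted of CD4 and CD8 T cells, from day 20 (6 libraries each, the latter called depleted EpCAM-negative cells below). The cultured cells were not implanted, and the labels describe no antibody staining or sorting of them, so that growth in the mouse, time, digestion and sorting cannot be told apart in any difference from culture. Nothing states that the 2 culture replicates were grown separately, so the spread between them may be only technical. The spread behind the p-values was estimated over all 5 groups, mostly from tumour libraries. Variation between separately grown cultures may thus not be measured. How many mice gave the 6 tumour libraries is not given either.

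Epithelial cells are held together by adherens junctions, tight junctions and desmosomes, and the Par, Crumbs and Scribble protein complexes give them an apical and a basal side. In epithelial-mesenchymal transition (EMT), transcription factors of the Snail, Zeb and Twist families bind E-box words in the promoters of junction and polarity genes and repress them, while matrix, integrin and cytoskeletal genes are induced. Cells with mesenchymal features have been described in neu-driven mammary tumours of mice under attack by T cells.

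Levels are given as CPM, counts per 1000000 after scaling between libraries. For each gene the 2 cultures are given in order, and the 6 tumour libraries as the lowest, the median and the highest. Each difference is a log2 fold change ± its standard error, followed by the adjusted p of edgeR's quasi-likelihood test (Benjamini-Hochberg over all tested features, threshold 0.05). Where a group held 0 counts the fold is a lower bound against 3 counts over the group, a floor of 0.0427 CPM for the cultures and 0.0155 CPM for the tumour cells. Where it held few counts the ratio is given with an interval that covers counting error only.

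The targets of the sort and other cell types were looked at first. The tumour libraries held 32467552 to 38740143 counts and 17650 to 18854 detected genes, and the cultures held 27253363 and 35059744 counts and 17719 and 18557 genes. Epcam lay at 811 and 771 CPM in the cultures and 1.06, 1.59 and 2.39 CPM in the tumour libraries, which is what the gate selected and is no finding. RatActivatedNeu stood at 517 and 588 CPM in the cultures and 463, 586 and 646 CPM in the tumour libraries (log2 fold change 0.06 ± 0.21, adjusted p = 0.838), and the groups overlapped. Mouse Erbb2, which shares sequence with it, was lower (log2 fold change −0.72 ± 0.12, adjusted p = 1.71e-05). Ptprc, which encodes CD45, had 0 counts in the cultures and a mean of 0.0567 CPM in the tumour cells, and Thy1, which encodes CD90, had 0 counts in both. Eng, which encodes CD105, lay at 1.12 and 0.768 CPM in the cultures and 1.80, 2.49 and 3.03 CPM in the tumour libraries with a log2 fold change of 1.36, or 1.09 without culture 2, when it did not pass. The summed level of 20 macrophage markers was 70.2 and 71.7 CPM in the cultures and 66.3 to 82.6 CPM in the tumour libraries, with 6 markers at 0 counts in culture and 0 in the tumour cells. Cd14 and Cd68 made up most of the sum in culture, at 35.6 and 32.6 CPM, and had means of 34.5 and 16.2 CPM in the tumour cells. Other macrophage markers, named after their values were seen, had higher means in the tumour cells, with Lyz2 at 0.295 and 2.87 CPM, Fcer1g at 0.506 and 5.38 CPM, Csf1r at 1.62 and 4.89 CPM and Cd163 at 0.0160 and 4.11 CPM, culture first. The 11 T cell markers summed to 1.69 and 4.91 CPM in the cultures and 6.75 to 18.7 CPM in the tumour libraries, led by Cd28 (1.39 and 8.56 CPM) and Trac (1.57 and 3.03 CPM), with Cd3d, Cd3g, Cd4, Cd8a, Cd8b1 and Cd5 at 0 counts in both groups. The 7 dendritic cell markers summed to 2.99 and 10.6 CPM against 35.0 to 55.2 CPM, led by Zbtb46 (6.47 and 40.9 CPM), with Itgax and Clec9a at 0 counts in both. The 16 fibroblast markers summed to 513 and 536 CPM in the cultures and 2073 to 5693 CPM in the tumour libraries, led by Gsn in culture (506 CPM) and by Col1a1 and Dcn in the tumour cells, with Thy1 at 0 counts. The 10 pericyte and smooth muscle markers summed to 17.3 and 22.8 CPM against 581 to 1691 CPM, with Kcnj8 and Abcc9 at 0 counts. Notch3 led in culture and went down (means of 17.2 and 1.97 CPM), and Pdgfrb made up nearly all of the sum in the tumour cells (0.906 and 1064 CPM). The part of such cells in the matrix and immune results below was not tested. In sorted cells measured in bulk, fewer cells of a type and less RNA per cell cannot be told apart.

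Of 16637 tested features, 4412 were higher in the tumour cells than in culture (26.5%) and 4021 were lower (24.2%), with a median log2 fold change of 0.08 over all tested features. Changes of 4-fold or more counted 1763 higher (10.6%) and 973 lower (5.85%). Against the EpCAM-positive cells of the same treatment, 2220 features were higher (13.3%) and 2414 lower (14.5%), and against the depleted EpCAM-negative cells 3862 were higher (23.2%) and 3639 lower (21.9%). These shares are the background for the gene lists that follow. The 5 transcripts with the largest shares of counts in the tumour cells also had larger mean shares there than in culture, by little for Fth1. Spp1, which encodes the secreted glycoprotein osteopontin, made up 6.86% of all counts there and 0.847% in culture, and Fn1, the matrix protein fibronectin, 2.21% and 0.158%. Cst3, a secreted cysteine protease inhibitor, made up 0.910% and 0.0236%, Ctsd, a lysosomal protease, 0.728% and 0.264%, and Fth1, the ferritin heavy chain, 0.770% and 0.541%.

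**Figure D1:**
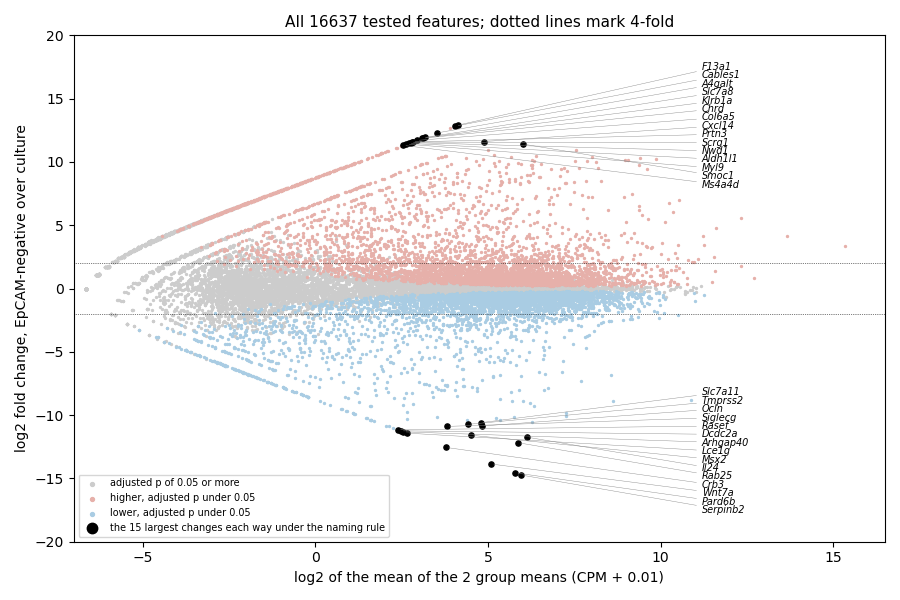
Log2 fold change of control EpCAM-negative tumour cells over culture (vertical axis) against the mean level of the 2 groups (horizontal axis, log2 of CPM + 0.01) for the 16637 tested features. Red and blue points passed the test upward and downward, dotted lines mark 4-fold, and black points are the 15 largest changes each way under the naming rule. The diagonal rows of points at the edges are features with no or few counts in 1 group.

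The 15 largest falls ended at or near 0 counts in all 6 tumour libraries. Among them were genes of epithelial polarity and junctions. Pard6b, a scaffold of the Par polarity complex, lay at 103 and 118 CPM in the cultures and 0 counts in all 6 tumour libraries (at least 7220-fold lower, adjusted p = 5.01e-13). Rab25, a GTPase of epithelial recycling endosomes, lay at 124 and 110.0 CPM in the cultures and 0, 0 and 0.0818 CPM in the tumour libraries (5630-fold lower, 95% counting interval 2200 to 20700, adjusted p = 4.55e-16). Ocln, the tight junction protein occludin, stood at 54.6 and 58.4 CPM in the cultures and 0, 0 and 0.123 CPM in the tumour libraries (2200-fold lower, 95% counting interval 941 to 6770, adjusted p = 1.04e-14). Other genes of this set have varied roles. Serpinb2, an inhibitor of plasminogen activators, lay at 114 and 135 CPM in the cultures and 0 counts in all 6 tumour libraries (at least 8120-fold lower, adjusted p = 5.00e-11). The Wnt ligand gene Wnt7a lay at 67.9 and 68.0 CPM in the cultures and 0 counts in all 6 tumour libraries (at least 4400-fold lower, adjusted p = 1.32e-09). Il24, a cytokine of the interleukin-10 family, lay at 134 and 146 CPM in the cultures and 0, 0.0276 and 0.139 CPM in the tumour libraries (3890-fold lower, 95% counting interval 1890 to 9690, adjusted p = 1.30e-12). No overlap between the groups was a condition for naming the largest falls and rises, so it is no finding for them. Msx2, a homeobox factor, fell from a mean of 45.6 to 0.00928 CPM, Siglecg, a sialic acid-binding lectin, from 28.1 to 0.00909 CPM, and Tmprss2, a membrane serine protease, from 42.7 to 0.0193 CPM. Slc7a11, the cystine transporter, fell from 55.1 to 0.0304 CPM. Lce1g, a cornified envelope gene, Arhgap40, a GTPase-activating protein, Dcdc2a, a doublecortin-domain protein, and Rasef had culture means of 12.6, 11.7, 11.1 and 10.5 CPM and 0 counts in the tumour cells. The remaining gene, Crb3, is described with its promoter below. The fitted log2 fold change moved when 1 was left out for Rab25 (−12.18, −13.38 without tumour library 3), Ocln (−10.86, −12.40 without tumour library 1), Il24 (−11.74, −12.59 without tumour library 5), Msx2 (−11.59, −13.30 without tumour library 2), Siglecg (−10.89, −12.56 without tumour library 3) and Tmprss2 (−10.73, −11.35 without tumour library 1).

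The 15 largest rises were genes with no or almost no counts in culture. F13a1, the A chain of coagulation factor XIII, had 0 counts in both cultures and 5.23, 22.1 and 119 CPM in the tumour libraries (at least 822-fold higher, adjusted p = 0.00128), and tumour library 1 held the highest value. Without that library its fitted log2 fold change went from 12.91 to 11.95. Cables1, a cyclin-dependent kinase adaptor, had 0 counts in both cultures and 20.4, 35.4 and 44.3 CPM in the tumour libraries (at least 768-fold higher, adjusted p = 1.60e-07). Cxcl14, a chemokine, lay at 0.0321 and 0 CPM in the cultures and 25.5, 62.8 and 87.4 CPM in the tumour libraries (4040-fold higher, 95% counting interval 725 to 160000, adjusted p = 5.49e-10), and Smoc1, a calcium-binding matrix protein, at 0.0641 and 0.0256 CPM in the cultures and 62.6, 117 and 208 CPM in the tumour libraries (2940-fold higher, 95% counting interval 1010 to 14200, adjusted p = 3.13e-09). The single culture counts make these ratios imprecise, with fitted log2 fold changes of Cxcl14 (11.61, 13.64 without culture 1 and 10.62 without culture 2) and Smoc1 (11.41, 12.06 without culture 1). A4galt, the synthase of the glycolipid Gb3, rose to a mean of 23 CPM, Slc7a8, an amino acid transporter, to 17.9 CPM, Chrd, the BMP antagonist chordin, to 17.2 CPM, and Col6a5, a collagen VI chain, to 15.2 CPM, each from 0 counts in culture. Scrg1 rose to 13.9 CPM, Myl9, a regulatory light chain of myosin II, to 12.4 CPM, Aldh1l1, a folate enzyme, to 13 CPM, and Nwd1 to 13.5 CPM. The remaining genes are known from blood cells. Prtn3, the proteinase 3 of neutrophil granules, had 0 counts in both cultures and 8.84, 14.9 and 16.6 CPM in the tumour libraries (at least 329-fold higher, adjusted p = 3.68e-09). Of 10 neutrophil markers, which summed to 30.5 and 32.0 CPM in the cultures and 2.75 to 5.34 CPM in the tumour libraries, S100a8 made up nearly all (means of 30.0 and 2.69 CPM). Granule genes of that list went from 0 to 0.282 CPM for Elane, from 0.0128 to 0.176 CPM for Camp and from 0 to 0.0648 CPM for Mmp8 (group means). Ngp, another of them, was level at 0.157 and 0.156 CPM. Of the other markers, Ly6g (0.923 and 0.0207 CPM), S100a9 and Cxcr2 had lower means in the tumour cells, Csf3r a higher one and Retnlg 0 counts in both groups. Klrb1a, a receptor of the natural killer cell gene cluster, had 0 counts in both cultures and 10.0, 15 and 28.5 CPM in the tumour libraries (at least 401-fold higher, adjusted p = 9.36e-07), and the 8 natural killer markers summed to 0.345 CPM or less in every tumour library. Ms4a4d, a member of the membrane-spanning 4A family, lay between 2.09 and 36.4 CPM, and its fitted log2 fold change went from 11.31 to 10.49 without tumour library 3.

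Of 30 adherens and tight junction genes, all tested, 23 fell and 3 rose against culture (median log2 fold change −3.13), where 24.2% and 26.5% of all features did. Directly against EpCAM-positive cells, 26 were lower and 0 higher (14.5% and 13.3% of all features), and against depleted EpCAM-negative cells 19 were lower and 3 higher (21.9% and 23.2%). The list includes Epcam, whose low level against culture and against EpCAM-positive cells is what the gate selected. Lsr, which seals junctions where 3 cells meet, lay at 79.0 and 71.2 CPM in the cultures and 0, 0.0174 and 0.225 CPM in the tumour libraries (1320-fold lower, 95% counting interval 735 to 2640, adjusted p = 2.93e-15, and fitted log2 fold changes of −10.26, and −11.33 without tumour library 6). Cldn3, a claudin, lay at 204 and 165 CPM in the cultures and 4.17, 7.39 and 10.2 CPM in the tumour libraries (log2 fold change −4.65 ± 0.25, adjusted p = 4.55e-14). The adherens junction cadherin kept part of its level. Cdh1, which encodes E-cadherin, lay at 428 and 486 CPM in the cultures and 82.4, 136 and 187 CPM in the tumour libraries (log2 fold change −1.68 ± 0.24, adjusted p = 2.13e-06), all 6 libraries below both cultures. In EpCAM-positive cells Cdh1 was above culture, at 777 to 849 CPM, and the direct comparison of the fractions gave a log2 fold change of −2.49 ± 0.20, adjusted p = 3.04e-10. In depleted EpCAM-negative cells it lay at 46.4 to 138 CPM, lower than in control tumours (log2 fold change 0.66 ± 0.19, adjusted p = 0.00553). Cdh2, the neural cadherin often exchanged for it, stood at 8.82 and 6.17 CPM in the cultures and 7.29, 14.3 and 24.9 CPM in the tumour libraries and did not pass (log2 fold change 0.97 ± 0.61, adjusted p = 0.192).

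Polarity genes went with the junctions. Of 21 genes of epithelial polarity and trafficking, 16 fell and 1 rose (median log2 fold change −2.90), and the 1 rise was lost without tumour library 1, 2 or 6 or culture 1. Crb3, the Crumbs protein that marks the apical membrane, lay at 27.9 and 27.2 CPM in the cultures and 0 counts in all 6 tumour libraries (at least 1780-fold lower, adjusted p = 5.16e-13). In EpCAM-positive cells it lay at 3.30 to 7.37 CPM (at least 336-fold lower, adjusted p = 4.49e-11, for EpCAM-negative against EpCAM-positive cells) and in depleted EpCAM-negative cells at 0.436 to 2.05 CPM. Ap1m2, the epithelial clathrin adaptor subunit, lay at 104 and 109 CPM in the cultures and 0, 0.0136 and 0.487 CPM in the tumour libraries (1220-fold lower, 95% counting interval 762 to 2100, adjusted p = 1.37e-12), with a fitted log2 fold change of −10.17, and −12.20 without tumour library 5. Against EpCAM-positive cells 16 of the 21 were lower and 0 higher, and against depleted EpCAM-negative cells 10 and 2.

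The promoter windows of 3 genes that fell are shown because EMT repressors are known to bind the E-box words CACCTG and CAGGTG, which are reverse complements of each other, so that a search on both strands finds both. The windows come from RefSeq on the mouse build GRCm38.p6 and run 250 bases before to 50 after a start site, and capitals mark the words. Of 32851 RefSeq windows of this length, 6640 (20.2%) hold at least 1 of them. Epcam is at chr17:87635729-87636028 on the plus strand, with words that begin at −187 and −19, counted in bases from the start site. Cldn7, a claudin with a mean of 286 CPM in culture and 5.46 CPM in the tumour cells, is at chr11:69965171-69965470 on the plus strand, with words at −97 and −57. A second Cldn7 window in the table, at chr11:69964529-69964828, holds none. Crb3 is at chr17:57061951-57062250 on the plus strand, with words at −118, −63, −7 and 25. The window of Ovol2, a repressor of Zeb1 that had 6.73 and 6.30 CPM in the cultures and 0 counts in all 6 tumour libraries, holds none. A match is a description of these letters and not a bound site.
Epcam: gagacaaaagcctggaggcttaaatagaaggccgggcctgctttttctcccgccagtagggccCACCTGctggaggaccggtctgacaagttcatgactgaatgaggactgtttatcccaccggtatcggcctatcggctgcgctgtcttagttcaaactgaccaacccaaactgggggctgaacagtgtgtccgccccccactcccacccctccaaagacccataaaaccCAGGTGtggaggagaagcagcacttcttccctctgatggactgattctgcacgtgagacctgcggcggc
Cldn7: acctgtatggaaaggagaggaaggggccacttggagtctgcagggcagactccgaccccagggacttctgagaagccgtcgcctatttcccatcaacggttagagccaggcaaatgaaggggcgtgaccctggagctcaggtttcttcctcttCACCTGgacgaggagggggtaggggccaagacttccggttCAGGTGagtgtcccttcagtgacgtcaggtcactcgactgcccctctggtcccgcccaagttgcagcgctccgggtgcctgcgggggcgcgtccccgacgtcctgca
Crb3: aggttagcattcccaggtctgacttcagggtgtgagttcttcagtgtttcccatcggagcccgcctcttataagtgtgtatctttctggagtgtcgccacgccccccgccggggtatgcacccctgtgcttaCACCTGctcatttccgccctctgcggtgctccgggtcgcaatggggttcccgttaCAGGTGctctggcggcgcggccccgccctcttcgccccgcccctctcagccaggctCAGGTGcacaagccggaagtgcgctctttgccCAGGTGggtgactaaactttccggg

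Membrane serine proteases and their inhibitors, which are expressed on epithelial surfaces, had the lowest median of all 43 lists (−5.55). Of 12 tested, 10 fell and 0 rose. Prss22, a tryptase-like protease, lay at 161 and 160.2 CPM in the cultures and 0.0273, 0.177 and 0.661 CPM in the tumour libraries (log2 fold change −9.28 ± 0.45, adjusted p = 1.10e-14). Spint1, an inhibitor of the protease matriptase, lay at 77.3 and 85.5 CPM in the cultures and 0, 0.0300 and 0.185 CPM in the tumour libraries (1440-fold lower, 95% counting interval 806 to 2890, adjusted p = 1.39e-14). Neither overlapped with culture. Tmprss11e, a transmembrane protease, fell from a mean of 305 to 0.283 CPM and Prss8, the protease prostasin, from 25.3 to 1.21 CPM. The fitted log2 fold change moved without 1 library for Spint1 (−10.38, −11.21 without tumour library 1) and Tmprss11e (−10.05, −11.30 without tumour library 6). In the direct test against depleted EpCAM-negative cells 9 of the 12 were lower and 0 higher.

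Keratins and desmosomes changed less evenly. Of 26 genes 14 fell, 1 rose and 11 did not pass (median log2 fold change −1.36), with 2 rises without tumour library 3. The luminal keratins Krt8 and Krt18, which form the filaments of simple epithelia, were still read in every tumour library. Krt18 lay at 2377 and 2360 CPM in the cultures and 382, 589.5 and 734 CPM in the tumour libraries (log2 fold change −2.07 ± 0.15, adjusted p = 2.73e-11) and Krt8 at 1063 and 1078 CPM in the cultures and 339, 510.5 and 576 CPM in the tumour libraries (log2 fold change −1.17 ± 0.16, adjusted p = 1.07e-06). Every tumour library was below both cultures for each. Krt7, another keratin of simple epithelia, lay at 3857 and 3651 CPM in the cultures and 0.965, 4.48 and 29.2 CPM in the tumour libraries (log2 fold change −8.80 ± 0.67, adjusted p = 3.50e-11), or a log2 fold change of −9.80 without tumour library 3. The desmosome plaque genes Pkp3 and Pkp2 fell from a mean of 133 to 31.8 CPM and from 79.0 to 21.4 CPM. The basal keratin Krt14 lay at 368 and 357 CPM in the cultures and 84.9, 154 and 203 CPM in the tumour libraries (log2 fold change −1.30 ± 0.20, adjusted p = 4.06e-06), whereas EpCAM-positive cells were above culture at 2612 to 3260 CPM (log2 fold change −4.31 ± 0.17, adjusted p = 2.62e-15, between the fractions). Directly against EpCAM-positive cells, 24 of the 26 were lower and 0 higher, and against depleted EpCAM-negative cells 17 were lower and 1 higher.

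Among 22 regulators of epithelial transcription and splicing, 20 were tested, 9 fell and 5 rose (median log2 fold change −0.55). Of the rises, 2 to 3 passed without culture 1, culture 2, tumour library 1 or tumour library 2. Of the tested genes, 3 had 0 counts in culture or in the tumour cells, where the fitted fold is imprecise. Directly against EpCAM-positive cells 14 were lower and 0 higher, and against depleted EpCAM-negative cells 7 were lower and 7 higher. Esrp1, which directs epithelial splice forms, lay at 118 and 141 CPM in the cultures and 0, 0.233 and 0.765 CPM in the tumour libraries (log2 fold change −8.92 ± 0.55, adjusted p = 8.16e-13) and was at 56.1 to 112 CPM in EpCAM-positive cells. Its relative Esrp2 lay at 36.3 and 43.3 CPM in the cultures and 0.791, 1.64 and 2.99 CPM in the tumour libraries (log2 fold change −4.50 ± 0.43, adjusted p = 2.52e-09). Elf3, an epithelial Ets factor, fell from a mean of 12.6 to 0.120 CPM. Trp63, the p53 relative of basal epithelia, went the other way. It lay at 0.192 and 0.281 CPM in the cultures and 78.4, 96.8 and 128 CPM in the tumour libraries (log2 fold change 8.64 ± 0.45, adjusted p = 3.82e-14), with every tumour library far above both cultures. The EpCAM-positive cells had more of it still, at 118 to 185 CPM (log2 fold change −0.76 ± 0.17, adjusted p = 0.00115), and the depleted EpCAM-negative cells less, at 21.8 to 56.1 CPM (log2 fold change 1.25 ± 0.17, adjusted p = 1.47e-06).

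Of 17 EMT transcription factors 16 were tested, 10 rose and 1 fell (median log2 fold change 1.67). The 1 fall became 2 without tumour library 4, when Snai2 passed with a log2 fold change of −0.86. Zeb1 lay at 2.89 and 1.59 CPM in the cultures and 69.3, 85.5 and 94.1 CPM in the tumour libraries (log2 fold change 5.26 ± 0.43, adjusted p = 1.12e-10) and Snai1, which encodes Snail, at 4.87 and 3.94 CPM in the cultures and 30.3, 35.1 and 44.9 CPM in the tumour libraries (log2 fold change 3.02 ± 0.23, adjusted p = 4.49e-11). Both were also higher than in EpCAM-positive cells, Zeb1 with a log2 fold change of 1.74 ± 0.21, adjusted p = 6.73e-07 and Snai1 with a log2 fold change of 1.09 ± 0.13, adjusted p = 7.13e-07. Set against depleted EpCAM-negative cells, Snai1 was higher (log2 fold change 0.87 ± 0.13, adjusted p = 7.33e-06), while Zeb1 did not pass (log2 fold change −0.02 ± 0.21, adjusted p = 0.939). Zeb2 lay at 10.3 and 12.5 CPM in the cultures and 38.8, 41.5 and 66.4 CPM in the tumour libraries (log2 fold change 2.10 ± 0.41, adjusted p = 1.05e-04). The other Snail and Twist genes were low. Snai2, which encodes Slug, stood at 3.24 and 3.61 CPM in the cultures and 1.34, 1.73 and 4.65 CPM in the tumour libraries and did not pass (log2 fold change −0.55 ± 0.39, adjusted p = 0.253). Twist1 had 0 counts in both cultures and 0.185, 0.485 and 0.736 CPM in the tumour libraries (at least 11.1-fold higher, adjusted p = 0.00379) and no longer passed without culture 2, with fitted log2 fold changes of 6.67 and 6.65. Tcf4, an E-box factor, rose from a mean of 30.3 to 109 CPM, and Foxc1, a forkhead factor, from 51.0 to 174 CPM.

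Of 25 genes of mesenchymal structure and adhesion 23 were tested, 16 rose and 2 fell (median log2 fold change 3.32, or 2.78 with genes at 0 counts at their bound). Vim, the intermediate filament vimentin, was already high in culture. It lay at 333 and 359.5 CPM in the cultures and 2063, 2409 and 2611 CPM in the tumour libraries (log2 fold change 2.78 ± 0.18, adjusted p = 2.39e-12). Fn1 lay at 1286 and 1505 CPM in the cultures and 17570, 23100 and 33620 CPM in the tumour libraries (log2 fold change 4.12 ± 0.29, adjusted p = 6.99e-12) and Sparc, a collagen-binding matricellular protein, at 22.9 and 24.0 CPM in the cultures and 2386, 2949 and 3178 CPM in the tumour libraries (log2 fold change 6.96 ± 0.24, adjusted p = 6.68e-17). All tumour libraries were above both cultures for these 3 genes. Pdgfrb, the receptor for platelet-derived growth factor B, lay at 0.866 and 0.947 CPM in the cultures and 568, 1113 and 1533 CPM in the tumour libraries (log2 fold change 10.19 ± 0.56, adjusted p = 9.69e-14). In EpCAM-positive cells Pdgfrb lay at 234 to 472 CPM and in depleted EpCAM-negative cells at 5.85 to 16.4 CPM, and both direct differences passed (log2 fold change 1.41 ± 0.22, adjusted p = 1.64e-05, and log2 fold change 6.61 ± 0.28, adjusted p = 1.61e-15). Mmp14, a membrane metalloprotease, lay at 157 and 154 CPM in the cultures and 1448, 1531 and 1713 CPM in the tumour libraries (log2 fold change 3.32 ± 0.13, adjusted p = 4.55e-16). Itgb3, the integrin beta 3 chain, rose from a mean of 0.109 to 116 CPM, with a fitted log2 fold change of 9.94, and 10.69 without culture 2. The fibroblast markers given above moved with these genes, and their part in the result was not tested. Over the whole list the direct difference from depleted EpCAM-negative cells was not that of Pdgfrb. There 9 of the 23 tested genes were higher and 8 lower (median log2 fold change 0.07). Directly against EpCAM-positive cells, 16 were higher and 4 lower (median 0.98).

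An EMT score per library, the mean log2 CPM of the mesenchymal list minus that of the junction list without Epcam, put the groups side by side. It was −1.51 and −1.49 in the cultures and 5.22 ± 0.207 in the EpCAM-negative cells of control tumours (SD, n = 6, range 4.95 to 5.54), a difference of 6.72. The junction genes averaged 5.5 ± 0.095 log2 CPM in culture (n = 2) and 2.04 ± 0.105 in the tumour cells, and the mesenchymal genes 4 ± 0.107 and 7.26 ± 0.144. EpCAM-positive cells of the same treatment scored 1.52 ± 0.240, with junction genes at 5.26 ± 0.219 and mesenchymal genes at 6.78 ± 0.145. Depleted EpCAM-negative cells scored 2.81 ± 0.222, with junction genes at 3.85 ± 0.350 and mesenchymal genes at 6.66 ± 0.182. The score is a description without a test, since the lists were chosen with results of these data known.

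**Figure D2:**
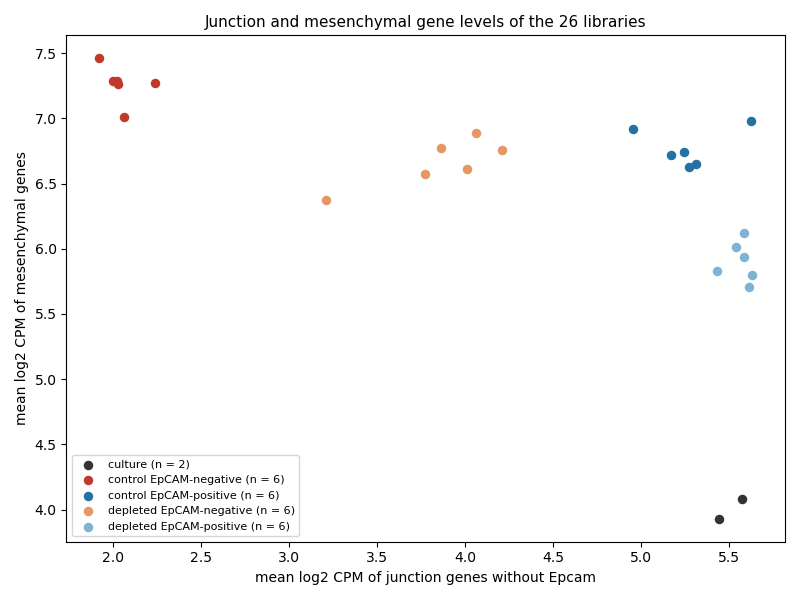
Mean log2 CPM of the mesenchymal list (vertical axis) against that of the junction list without Epcam (horizontal axis) in each of the 26 libraries, coloured by group. The 6 control EpCAM-negative libraries sit at the upper left with junction means near 2.04 and mesenchymal means near 7.26, and the 2 cultures at the lower right near 5.5 and 4.

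Collagens had the highest median of all lists. Of 26 collagen chains 19 rose and 5 fell (median log2 fold change 5.44). Col1a1, the main chain of collagen I, lay at 2.28 and 2.07 CPM in the cultures and 448, 1663 and 2462 CPM in the tumour libraries (log2 fold change 9.47 ± 0.89, adjusted p = 1.55e-09). Col6a1 of collagen VI lay at 1.31 and 0.870 CPM in the cultures and 922, 1314 and 1823 CPM in the tumour libraries (log2 fold change 10.30 ± 0.72, adjusted p = 6.79e-12) and Col5a1 of collagen V at 1.15 and 0.998 CPM in the cultures and 265, 369 and 439 CPM in the tumour libraries (log2 fold change 8.38 ± 0.51, adjusted p = 6.91e-13). The lowest tumour library exceeded both cultures by far in each. Col18a1, a basement membrane collagen that was abundant in culture, rose from a mean of 914 to 5035 CPM, and Col16a1 from 3.08 to 472 CPM, with a log2 fold change of 7.24, and 7.98 without culture 2. The falls were basement membrane and anchoring chains, named here after their values were seen: Col4a1 went from a mean of 458 to 113 CPM, Col4a2 from 372 to 81.8 CPM and Col7a1 from 77.3 to 12.4 CPM, with log2 fold changes of −2.02, −2.19 and −2.63. The other falls, Col4a3 and Col4a4, are collagen IV chains too. Enzymes that process collagen moved with the chains, with 17 of 21 higher and 0 lower (median 2.66). Adamts2, which trims procollagen, lay at 0.609 and 0.486 CPM in the cultures and 444, 563 and 639 CPM in the tumour libraries (log2 fold change 9.98 ± 0.37, adjusted p = 1.59e-16). P4ha1 and P4hb, the subunits of prolyl 4-hydroxylase, rose from means of 76.1 to 508 CPM and 657 to 1654 CPM, and Pcolce, an enhancer of procollagen cleavage, from 3.65 to 218 CPM.

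Of 27 matricellular proteins and proteoglycans 21 rose and 1 fell (median log2 fold change 4.89, with 0 falls without culture 2 and 2 without tumour library 5). Spp1 lay at 7628 and 7373 CPM in the cultures and 56050, 75590 and 88970 CPM in the tumour libraries (log2 fold change 3.33 ± 0.26, adjusted p = 7.28e-11), and the lowest tumour library was above both cultures. Mgp, the matrix Gla protein, lay at 25.6 and 19.5 CPM in the cultures and 1462, 2257 and 3303 CPM in the tumour libraries (log2 fold change 6.74 ± 0.59, adjusted p = 4.16e-10), and Postn, the matrix protein periostin, at 1.92 and 1.48 CPM in the cultures and 409, 574 and 956 CPM in the tumour libraries (log2 fold change 8.51 ± 0.48, adjusted p = 1.43e-13). Mgp was higher than in EpCAM-positive cells (log2 fold change 2.40 ± 0.29, adjusted p = 3.64e-07) and Postn was lower (log2 fold change −1.75 ± 0.20, adjusted p = 2.45e-07). Sparcl1, a relative of Sparc, rose from a mean of 0.256 to 110.5 CPM, with a log2 fold change of 8.66, and 9.67 without culture 2. Among 28 laminins and integrins 15 rose and 4 fell (median 0.81). Itgb8, an integrin chain that activates latent TGF-beta, lay at 1.54 and 2.87 CPM in the cultures and 174, 235 and 285 CPM in the tumour libraries (log2 fold change 6.70 ± 0.30, adjusted p = 2.62e-15). Itga3, a laminin-binding chain, lay at 1105 and 1073 CPM in the cultures and 178, 225 and 263 CPM in the tumour libraries (log2 fold change −2.28 ± 0.12, adjusted p = 7.89e-14). Itgb5 rose from a mean of 209.9 to 572 CPM.

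Of 28 matrix proteases and inhibitors 27 were tested, 18 rose and 5 fell (median log2 fold change 2.43). Adamts4, which cleaves proteoglycans, lay at 44.0 and 50.3 CPM in the cultures and 710.0, 877 and 1012 CPM in the tumour libraries (log2 fold change 4.23 ± 0.27, adjusted p = 1.48e-12), and Timp2, an inhibitor of metalloproteases, at 684 and 715 CPM in the cultures and 3201, 3515 and 4222 CPM in the tumour libraries (log2 fold change 2.36 ± 0.16, adjusted p = 6.43e-12). Mmp10, the protease stromelysin 2, went down and lay at 128 and 143 CPM in the cultures and 1.01, 2.52 and 5.12 CPM in the tumour libraries (log2 fold change −5.61 ± 0.44, adjusted p = 7.38e-11). Of 22 contractile genes 8 were higher and 4 lower (median 0.34), beside 26.5% and 24.2% of all features. Without culture 1, 2 of the falls passed. Mylk, the myosin light chain kinase, lay at 0.545 and 1.54 CPM in the cultures and 93.8, 173 and 218 CPM in the tumour libraries (log2 fold change 7.28 ± 0.40, adjusted p = 7.57e-14), and had a log2 fold change of 8.22 without culture 2. Acta2, the smooth muscle actin, lay at 0.224 and 0.333 CPM in the cultures and 9.05, 49.0 and 149.5 CPM in the tumour libraries (log2 fold change 7.72 ± 1.06, adjusted p = 8.95e-07). Both separated the groups. Myh14, a nonmuscle myosin of epithelia, fell from a mean of 117 to 2.93 CPM, and Cald1, an actin-binding protein, rose from 263 to 469 CPM.

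**Figure D3:**
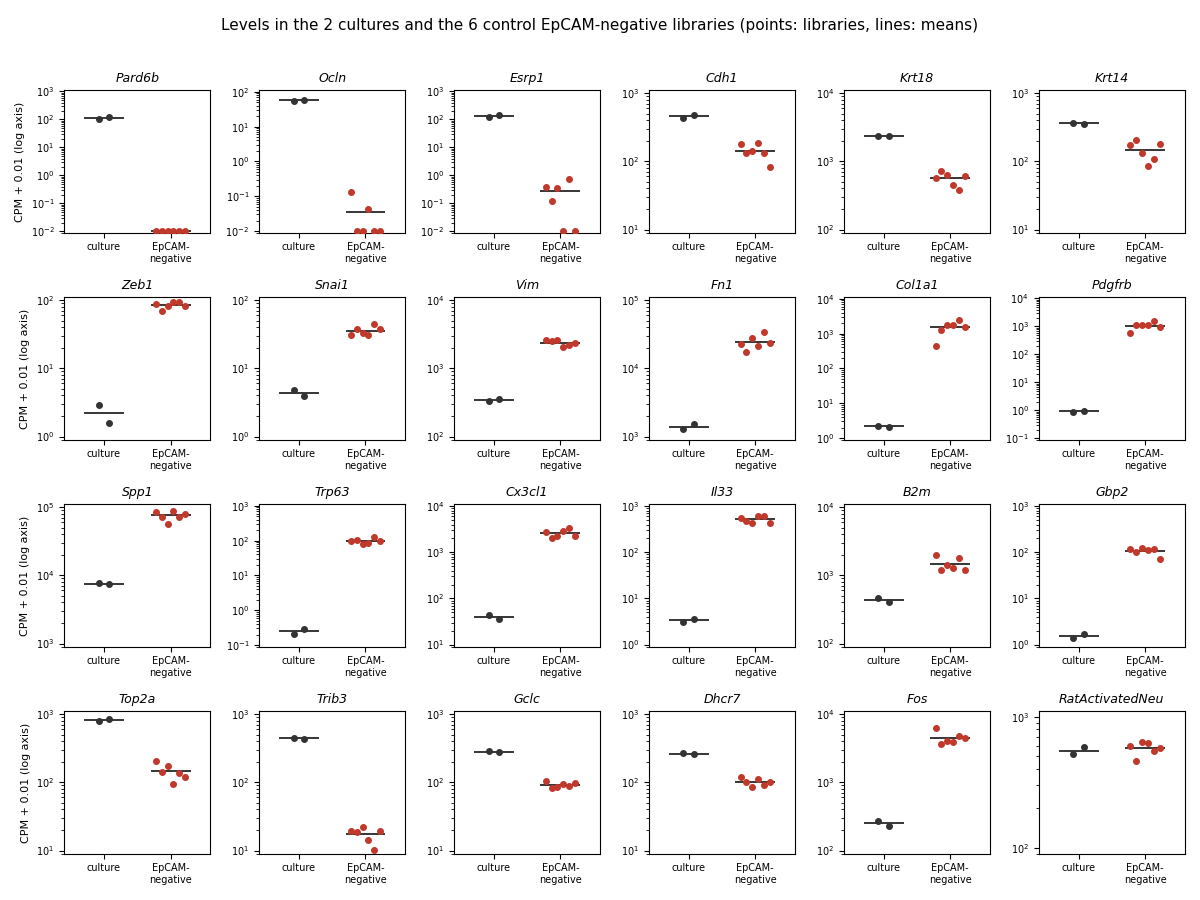
Levels of 24 genes (CPM + 0.01, log axes) in the 2 cultures (black) and the 6 control EpCAM-negative libraries (red), 1 point per library and a line at each group's mean. Junction, polarity and splicing genes in the top row drop from culture to tumour, most of them far more than Cdh1 or the keratins, while matrix and immune genes in the middle rows rise and RatActivatedNeu overlaps.

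Mammary lineage genes moved both ways, beside 26.5% of all features that rose and 24.2% that fell. Of 23 luminal and milk genes 22 were tested, 8 rose and 5 fell (median log2 fold change 0.98), and 5 rises passed without culture 1 or without culture 2. Cd24a, a surface marker of luminal cells, lay at 317 and 302 CPM in the cultures and 18.0, 28.8 and 49.8 CPM in the tumour libraries (log2 fold change −3.29 ± 0.20, adjusted p = 7.83e-13). Wfdc18, a secreted milk-associated protein, lay at 0.545 and 0.563 CPM in the cultures and 16.1, 24.2 and 61.6 CPM in the tumour libraries (log2 fold change 5.93 ± 0.74, adjusted p = 2.12e-07), and Cited1, a transcriptional coregulator of luminal cells, rose from a mean of 0.157 to 4.81 CPM with a log2 fold change of 4.85, 4.07 without culture 1 and 7.01 without culture 2. Among 18 basal genes 8 rose and 3 fell (median 1.75), with rises in Trp63, Mylk and Vim as given above. Egfr, the epidermal growth factor receptor, lay at 21.5 and 32.5 CPM in the cultures and 110.3, 132 and 165 CPM in the tumour libraries (log2 fold change 2.30 ± 0.22, adjusted p = 2.63e-09). Against EpCAM-positive cells 15 of 22 luminal and 9 of 18 basal genes were lower, and 1 and 3 were higher.

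Counts in the line's driver family were not far from the background, where 26.5% of all features rose and 24.2% fell. Of 16 ErbB receptors and ligands 15 were tested, 5 rose and 5 fell (median log2 fold change 0.06), and 3 rises passed without culture 1. Erbb3, the kinase-poor partner of Her2, lay at 61.7 and 67.8 CPM in the cultures and 0, 1.18 and 2.29 CPM in the tumour libraries (log2 fold change −5.80 ± 0.56, adjusted p = 2.62e-09). Grb7, an adaptor next to Her2 in the genome that binds it, lay at 44.7 and 38.4 CPM in the cultures and 0, 0.0136 and 0.0923 CPM in the tumour libraries (1600-fold lower, 95% counting interval 685 to 4930, adjusted p = 7.59e-12), with a fitted log2 fold change of −10.42, and −11.31 without tumour library 1. Both fell without overlap. Hbegf, an Egfr ligand, rose from a mean of 88.9 to 313 CPM. In the IGF axis 8 of 17 rose and 4 fell (median 1.00), with 5 rises without culture 1 or without culture 2. Igf1, the growth factor itself, lay at 0.128 and 0.128 CPM in the cultures and 106, 144 and 212 CPM in the tumour libraries (log2 fold change 10.19 ± 0.96, adjusted p = 1.77e-09), and Igfbp7, a secreted binding protein, at 1.38 and 0.793 CPM in the cultures and 181, 247 and 402 CPM in the tumour libraries (log2 fold change 7.96 ± 0.37, adjusted p = 5.61e-15). Igfbp3 rose from a mean of 46.3 to 274 CPM, and Igf2bp2, an RNA-binding protein, fell from 285 to 80.4 CPM.

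Of 30 TGF-beta and BMP genes 29 were tested, 17 rose and 5 fell (median log2 fold change 1.24). Among the ligands, Tgfb3 lay at 39.2 and 44.5 CPM in the cultures and 342, 389 and 470.4 CPM in the tumour libraries (log2 fold change 3.24 ± 0.18, adjusted p = 9.39e-14) and Inhbb, an activin chain, at 28.9 and 33.1 CPM in the cultures and 368, 421 and 505 CPM in the tumour libraries (log2 fold change 3.80 ± 0.24, adjusted p = 1.09e-12). Tgfbr3, the coreceptor betaglycan, lay at 2.12 and 2.66 CPM in the cultures and 126, 136 and 175 CPM in the tumour libraries (log2 fold change 5.89 ± 0.41, adjusted p = 6.79e-12). These 3 were above both cultures in all 6 libraries. Ltbp2, of the family that holds latent TGF-beta in the matrix, rose from a mean of 119.9 to 506 CPM. In Wnt signalling, 19 of 29 tested genes rose and 2 fell (median 1.90). The receptor gene Fzd1 lay at 6.83 and 10.5 CPM in the cultures and 108, 138 and 169 CPM in the tumour libraries (log2 fold change 3.99 ± 0.33, adjusted p = 1.25e-10). The nuclear factor Tcf7 rose from a mean of 9.59 to 43.5 CPM and the ligand Wnt9a from 3.58 to 26.4 CPM, while Wnt7a fell to 0 counts as given above. Of 27 tested PDGF, FGF and VEGF genes 17 rose and 4 fell (median 3.62). The receptor Pdgfra lay at 11.5 and 14.7 CPM in the cultures and 207, 283 and 323 CPM in the tumour libraries (log2 fold change 4.36 ± 0.30, adjusted p = 6.50e-12), and its ligand Pdgfc rose from 8.05 to 106 CPM. Nrp1, a coreceptor for VEGF and semaphorins, lay at 21.7 and 25.8 CPM in the cultures and 234, 289.8 and 345 CPM in the tumour libraries (log2 fold change 3.62 ± 0.18, adjusted p = 1.04e-14).

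Antigen presentation by MHC class I rose almost as a whole. Of 23 genes 22 rose and 0 fell (median log2 fold change 2.08). B2m, the light chain shared by class I molecules, lay at 467 and 402 CPM in the cultures and 1187, 1337 and 2005 CPM in the tumour libraries (log2 fold change 1.77 ± 0.29, adjusted p = 1.04e-05), and H2-K1, a heavy chain, at 604 and 526 CPM in the cultures and 816, 1088 and 1552 CPM in the tumour libraries (log2 fold change 0.99 ± 0.25, adjusted p = 0.00171). The immunoproteasome subunit gene Psmb8 lay at 1.41 and 0.819 CPM in the cultures and 80.9, 113 and 158 CPM in the tumour libraries (log2 fold change 6.69 ± 0.43, adjusted p = 1.30e-12). Its partner Psmb9 rose from a mean of 2.27 to 67.5 CPM, the peptide transporter gene Tap2 from 23.2 to 111 CPM and the loading factor gene Tapbp from 146 to 604 CPM. Class I heavy chains are close relatives, and reads of 50 bases may not separate them. Against depleted EpCAM-negative cells 20 of the 23 were higher and 1 lower, and against EpCAM-positive cells 6 were higher and 0 lower. For B2m the direct differences were a log2 fold change of 2.11 ± 0.19, adjusted p = 9.85e-10, and a log2 fold change of 0.96 ± 0.18, adjusted p = 2.38e-04, in that order. Class II genes, which are known from professional antigen-presenting cells, stayed low, with 5 of 11 tested higher, 0 lower and 3 higher without culture 1. Ciita, their transcriptional activator, had 0 counts in both cultures and 0.835, 1.35 and 5.26 CPM in the tumour libraries (at least 48.3-fold higher, adjusted p = 0.00145). H2-Aa rose from a mean of 0.173 to 4.34 CPM, Cd74, the invariant chain, from 0.586 to 8.52 CPM and Ctss, a lysosomal protease, from 0.0256 to 1.41 CPM, and Cd74 no longer passed without culture 1 (log2 fold change 3.84, and 3.62 without it). Ctss had a fitted log2 fold change of 5.43, 4.66 without culture 1 and 8.24 without culture 2. Directly against EpCAM-positive cells, 7 of the class II genes were lower and 0 higher.

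Of 27 interferon-gamma response genes 24 were tested, 18 rose and 1 fell (median log2 fold change 3.04). The guanylate-binding protein gene Gbp2 lay at 1.35 and 1.72 CPM in the cultures and 71.4, 115 and 125 CPM in the tumour libraries (log2 fold change 6.12 ± 0.37, adjusted p = 5.32e-13) and Gbp7 at 4.78 and 3.61 CPM in the cultures and 55.1, 61.2 and 75.4 CPM in the tumour libraries (log2 fold change 3.93 ± 0.25, adjusted p = 1.30e-12). In both the groups did not overlap. Gbp3 rose from a mean of 1.15 to 35.0 CPM, with a log2 fold change of 4.90, and 5.53 without culture 2, and the receptor chain gene Ifngr2 rose from 37.3 to 142 CPM. Cd274, which encodes PD-L1, did not pass and lay at 1.03 and 0.461 CPM in the cultures and 0, 1.18 and 2.37 CPM in the tumour libraries (log2 fold change 0.65 ± 0.94, adjusted p = 0.596). Of 36 antiviral interferon-stimulated genes 25 rose and 1 fell (median 1.24, with 0 falls without culture 1 or without culture 2). Zbp1, a sensor of Z-form nucleic acid, lay at 0.834 and 1.38 CPM in the cultures and 72.1, 83.9 and 89.5 CPM in the tumour libraries (log2 fold change 6.20 ± 0.26, adjusted p = 9.45e-16). Ifi27 rose from a mean of 38.2 to 133 CPM, the receptor chain gene Ifnar2 from 16.7 to 67.3 CPM and Parp14 from 5.80 to 37.4 CPM. In the direct test against depleted EpCAM-negative cells 18 of 24 interferon-gamma and 29 of 36 antiviral genes were higher, and 2 and 1 lower. Against EpCAM-positive cells 3 interferon-gamma genes were higher and 1 lower.

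Secreted immune factors moved both ways, beside 26.5% of all features that rose and 24.2% that fell. Of 24 tested chemokines 10 rose and 4 fell (median log2 fold change 2.91), and 4 and 5 rises passed without culture 1 or 2. Cx3cl1, the membrane-bound chemokine fractalkine, lay at 44.8 and 35.5 CPM in the cultures and 2086, 2515 and 3340 CPM in the tumour libraries (log2 fold change 6.03 ± 0.35, adjusted p = 2.45e-13). Its level was 982 to 2412 CPM in EpCAM-positive cells and 258 to 444 CPM in depleted EpCAM-negative cells, and both direct differences passed (log2 fold change 0.55 ± 0.17, adjusted p = 0.0147, and log2 fold change 2.96 ± 0.18, adjusted p = 1.14e-12). Cxcl16, the other membrane-bound chemokine, went down and lay at 179 and 198 CPM in the cultures and 11.4, 15.8 and 29.5 CPM in the tumour libraries (log2 fold change −3.45 ± 0.26, adjusted p = 4.16e-11). Ccl17 rose from a mean of 0.32 to 5.73 CPM. Of 25 cytokines and myeloid growth factors 9 rose and 8 fell, with a median of 0.02. Among them 4 had 0 counts in culture or in the tumour cells, where the fitted fold is imprecise, so the sign of this median is uncertain. Il33, an alarmin stored in the nucleus, lay at 3.01 and 3.66 CPM in the cultures and 422, 516 and 609.9 CPM in the tumour libraries (log2 fold change 7.27 ± 0.40, adjusted p = 1.08e-13). Il1a, another alarmin, lay at 78.5 and 85.2 CPM in the cultures and 0, 0.202 and 0.362 CPM in the tumour libraries (log2 fold change −8.74 ± 0.72, adjusted p = 1.56e-10). Csf3, the granulocyte growth factor, lay at 97.0 and 83.4 CPM in the cultures and 1.45, 2.61 and 4.04 CPM in the tumour libraries (log2 fold change −5.08 ± 0.31, adjusted p = 6.55e-13). Tslp, a cytokine of epithelial barriers, fell from a mean of 8.73 to 0.211 CPM. Csf1, the macrophage growth factor, lay at 247 and 267 CPM in the cultures and 283, 388 and 530.0 CPM in the tumour libraries (log2 fold change 0.64 ± 0.21, adjusted p = 0.0127) and did not pass without culture 1 (0.58) or without culture 2 (0.67).

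Of 23 tested checkpoint and immune regulatory ligands 11 rose and 7 fell (median log2 fold change 1.07). Cd200, a ligand that restrains myeloid cells, lay at 136 and 151 CPM in the cultures and 1159, 1334 and 1772 CPM in the tumour libraries (log2 fold change 3.30 ± 0.16, adjusted p = 5.68e-15), and Lgals9, the lectin galectin-9, at 13.8 and 16.7 CPM in the cultures and 158, 188 and 226 CPM in the tumour libraries (log2 fold change 3.63 ± 0.23, adjusted p = 8.76e-13). Cd47, the signal against phagocytosis, rose from a mean of 107 to 288 CPM, and Nt5e, the adenosine-forming enzyme CD73, from 354 to 958 CPM. Of 19 genes of death receptors and resistance to cytotoxic cells 9 rose and 4 fell (median 0.41). Serpinb9, an inhibitor of granzyme B, lay at 13.2 and 14.0 CPM in the cultures and 61.5, 89.3 and 108 CPM in the tumour libraries (log2 fold change 2.69 ± 0.22, adjusted p = 1.04e-10). The death receptor gene Fas rose from a mean of 5.08 to 30.2 CPM and the survival gene Mcl1 from 155 to 513 CPM, while Casp8 fell from 107 to 60.2 CPM. Of 22 NF-kB targets 12 rose and 2 fell (median 1.44), among them Nfkbiz, from a mean of 57.4 to 463 CPM, Cebpd, from 7.16 to 61.9 CPM, and Nfkbie, from 9.36 to 25.0 CPM. Vcam1, an adhesion molecule for leukocytes, rose from 1.70 to 56.6 CPM, with a log2 fold change of 5.03, and 5.75 without culture 2. Of 18 tested complement genes 13 rose and 1 fell (median 3.52), and the fall did not pass without culture 1. The rises included the early proteases C1ra, from a mean of 8.38 to 93.2 CPM, C1s1, from 3.64 to 109.8 CPM, and C1rb, from 0.737 to 6.60 CPM, and the membrane inhibitor Cd59a, from 7.78 to 25.2 CPM.

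Cell-cycle genes were lower than in culture almost throughout. All 30 mitotic genes fell (median log2 fold change −1.72) and 28 of 30 genes of DNA replication (median −1.44). Top2a, the topoisomerase of dividing cells, lay at 783 and 851 CPM in the cultures and 94.9, 141 and 203 CPM in the tumour libraries (log2 fold change −2.49 ± 0.23, adjusted p = 1.07e-09), and the mitotic kinase Cdk1 at 325 and 325 CPM in the cultures and 47.7, 58.3 and 91.0 CPM in the tumour libraries (log2 fold change −2.30 ± 0.22, adjusted p = 2.02e-09). The highest tumour library was below both cultures in each. Ube2c, which marks mitotic proteins for degradation, fell from a mean of 369.6 to 48.2 CPM, the spindle checkpoint gene Mad2l1 from 175 to 49.5 CPM, the helicase gene Mcm2 from 368 to 93.7 CPM and the licensing factor gene Cdt1 from 89.0 to 28.2 CPM. Mcm7 fell from 95.1 to 35.0 CPM and Rfc4, a clamp loader subunit, from 74.5 to 20.1 CPM. Mki67, the proliferation marker Ki-67, lay at 102 and 163 CPM in the cultures and 45.8, 57.4 and 104 CPM in the tumour libraries (log2 fold change −1.0 ± 0.32, adjusted p = 0.01) and no longer passed without culture 2, at −0.66. Directly against EpCAM-positive cells, the order was the other way, with 30 of 30 mitotic and 11 of 30 replication genes higher in the EpCAM-negative cells and 0 and 0 lower. Set against depleted EpCAM-negative cells, 4 mitotic genes were higher and 0 lower. Of 23 cell-cycle inhibitors and p53 targets 7 rose and 9 fell (median −0.19). Btg2, an antiproliferative early gene, rose from a mean of 33.8 to 1550 CPM, Rb1, the retinoblastoma gene, from 21.9 to 141 CPM and Phlda3, an inhibitor of Akt, from 146 to 345 CPM, while the death gene Pmaip1 fell from 38.0 to 3.84 CPM.

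Many genes of biosynthesis and redox defence were lower than in culture. Of 27 genes of amino acid stress and the unfolded protein response 18 fell and 2 rose (median log2 fold change −1.25). Trib3, a target of the factor ATF4, lay at 449.9 and 439 CPM in the cultures and 10.0, 19 and 22.4 CPM in the tumour libraries (log2 fold change −4.68 ± 0.25, adjusted p = 4.81e-14). The mitochondrial folate enzyme genes Mthfd2 and Shmt2 lay at 347 and 331 CPM in the cultures and 14.4, 15.9 and 20.5 CPM in the tumour libraries (log2 fold change −4.37 ± 0.20, adjusted p = 5.45e-15) and at 563 and 513 CPM in the cultures and 66.7, 78.7 and 101 CPM in the tumour libraries (log2 fold change −2.72 ± 0.11, adjusted p = 4.53e-16). The groups did not overlap in these 3 genes. Psph, an enzyme of serine synthesis, fell from a mean of 152 to 19.6 CPM. Against depleted EpCAM-negative cells 13 were lower and 4 higher. Of 23 tested NRF2 redox genes 16 fell and 4 rose (median −0.90), with 2 rises without culture 2. Gclc, the catalytic subunit that makes glutathione's precursor, lay at 284 and 282 CPM in the cultures and 82.0, 91.0 and 105 CPM in the tumour libraries (log2 fold change −1.62 ± 0.10, adjusted p = 6.55e-13). Its partner Gclm fell from a mean of 226 to 56.0 CPM, glutathione reductase (Gsr) from 446 to 118 CPM and the glutathione transferase gene Gsta4 from 129 to 12.6 CPM. Of 28 tested genes of cholesterol and fatty acid synthesis 19 fell and 2 rose (median −0.90), 1 of the rises without culture 2. Dhcr7, the last step of cholesterol synthesis, lay at 268 and 259 CPM in the cultures and 84.0, 102 and 121 CPM in the tumour libraries (log2 fold change −1.37 ± 0.13, adjusted p = 1.94e-09). Acly, which supplies acetyl-CoA, fell from a mean of 776 to 338 CPM, Fdft1, which makes squalene, from 107 to 28.7 CPM and Sc5d from 130.1 to 57.3 CPM.

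Of 32 ribosomal protein genes 30 fell and 0 rose (median log2 fold change −0.78), by small and similar amounts. Rpl4 lay at 797 and 791 CPM in the cultures and 443, 469 and 507 CPM in the tumour libraries (log2 fold change −0.75 ± 0.09, adjusted p = 1.85e-07). Rpl7 fell from a mean of 199 to 109 CPM and Rps24 from 46.8 to 21.5 CPM. Many ribosomal genes have processed copies in the genome that can share reads, so single members are uncertain. Hypoxia response genes rose, 16 of 20 with 3 lower (median 0.87). Adm, the vasodilator peptide adrenomedullin, lay at 1.54 and 2.51 CPM in the cultures and 74.2, 91.8 and 130.2 CPM in the tumour libraries (log2 fold change 5.57 ± 0.45, adjusted p = 1.24e-10), and Epas1, which encodes HIF-2 alpha, at 18.3 and 17.4 CPM in the cultures and 135, 149 and 189.5 CPM in the tumour libraries (log2 fold change 3.13 ± 0.25, adjusted p = 8.93e-11). Car12, a carbonic anhydrase, rose from a mean of 0.387 to 181 CPM, with a log2 fold change of 8.78, 8.19 without culture 1 and 10.07 without culture 2. In the direct test against depleted EpCAM-negative cells 4 of these 20 genes were higher and 10 lower. Of 21 glycolysis genes 13 rose and 3 fell (median 0.39), with Eno2 up from a mean of 9.15 to 62.4 CPM, Pfkp up from 73.6 to 253 CPM, and Pfkfb4 and the hexokinase gene Hk2 down from 93.1 to 8.59 CPM and 68.4 to 20.8 CPM. Of 30 nuclear genes of the respiratory chain 10 fell, 3 rose and 17 did not pass (median −0.14). The 3 rises became 0 without culture 2 and 1 without tumour library 2. Uqcrc1, Ndufa4, Uqcrq and Atp5g1 fell from means of 516 to 278 CPM, 456 to 222 CPM, 178 to 98.6 CPM and 27.2 to 15.6 CPM. Of 13 mitochondrially encoded genes 7 were tested, the others being listed at 0 in all 26 libraries, and mt-Nd1 fell from 1413 to 803 CPM while mt-Nd2, mt-Nd5 and mt-Nd6 did not pass.

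Immediate-early genes, which are known to be switched on within minutes by stimuli that include enzymatic digestion of tissue, were higher in the tumour cells. Of 30 genes 26 rose and 2 fell (median log2 fold change 3.45). Fos, a subunit of the factor AP-1, lay at 273 and 233 CPM in the cultures and 3678, 4231 and 6172 CPM in the tumour libraries (log2 fold change 4.16 ± 0.27, adjusted p = 1.65e-12), and its partner Jun at 157 and 166 CPM in the cultures and 1591, 1877 and 2575 CPM in the tumour libraries (log2 fold change 3.58 ± 0.22, adjusted p = 7.21e-13). Rhob, an early-induced GTPase, lay at 21.9 and 18.5 CPM in the cultures and 233, 331 and 374 CPM in the tumour libraries (log2 fold change 3.95 ± 0.28, adjusted p = 7.38e-12). All tumour libraries were above both cultures for these. Only the tumours were digested, so digestion and growth in the mouse cannot be told apart here. Against EpCAM-positive cells, which went through the same digestion, 5 were higher and 5 lower, and Fos did not pass (log2 fold change −0.32 ± 0.14, adjusted p = 0.102). Set against depleted EpCAM-negative cells, 9 were higher and 4 lower. Among 22 tested S100 and annexin genes 7 rose and 7 fell (median 0.08), beside 26.5% and 24.2% of all features. S100b, a calcium-binding protein known from glia and Schwann cells, lay at 0.353 and 0.486 CPM in the cultures and 66.4, 138 and 235 CPM in the tumour libraries (log2 fold change 8.40 ± 0.55, adjusted p = 2.17e-12). The 7 Schwann cell and nerve markers, S100b among them, summed to 59.9 and 61.4 CPM in the cultures, led by Mbp (49.9 CPM), and to 136 to 331 CPM in the tumour libraries, with Ncmap at means of 8.95 and 69.8 CPM and Sox10, a defining factor, at 0 counts in culture and 0.0116 CPM. Their part in the result was not tested. S100a14, an epithelial member, lay at 208 and 210.3 CPM in the cultures and 4.62, 7.98 and 12.7 CPM in the tumour libraries (log2 fold change −4.60 ± 0.27, adjusted p = 4.00e-13). S100a8, known from neutrophils, fell from a mean of 30.0 to 2.69 CPM, and Anxa8 rose from 46.0 to 323 CPM.

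Set side by side with the other sorted cells, each against the same 2 cultures, the lists parted in different ways. The comparisons share the cultures, so their medians are given as descriptions. Junction genes had medians of −3.13 in control EpCAM-negative, −0.38 in control EpCAM-positive and −1.53 in depleted EpCAM-negative cells, and keratins and desmosomes −1.36, 1.58 and 0.09. Collagens had medians of 5.44, 6.79 and 2.68 in that order, and mitotic genes −1.72, −2.75 and −2.09. MHC class I genes had 2.08, 1.82 and 0.46, and interferon-gamma response genes 3.04, 2.81 and 0.81. For junctions and keratins the control EpCAM-negative cells were the lowest of the 3. Polarity and trafficking genes had medians of −2.90, −0.22 and −2.69. For regulators of epithelial transcription and splicing, at −0.55, 0.48 and −2.03, depleted EpCAM-negative cells were the lowest. For class I and interferon-gamma genes the 2 fractions of control tumours were close together and depleted EpCAM-negative cells lower. Direct tests between the fractions stand above for some of the lists only. Of the collagens, 11 were higher and 6 lower directly against EpCAM-positive cells, and 14 and 2 against depleted EpCAM-negative cells. Depleted tumours were also younger (day 20 against day 47), so treatment and time cannot be told apart in those tests.

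**Figure D4:**
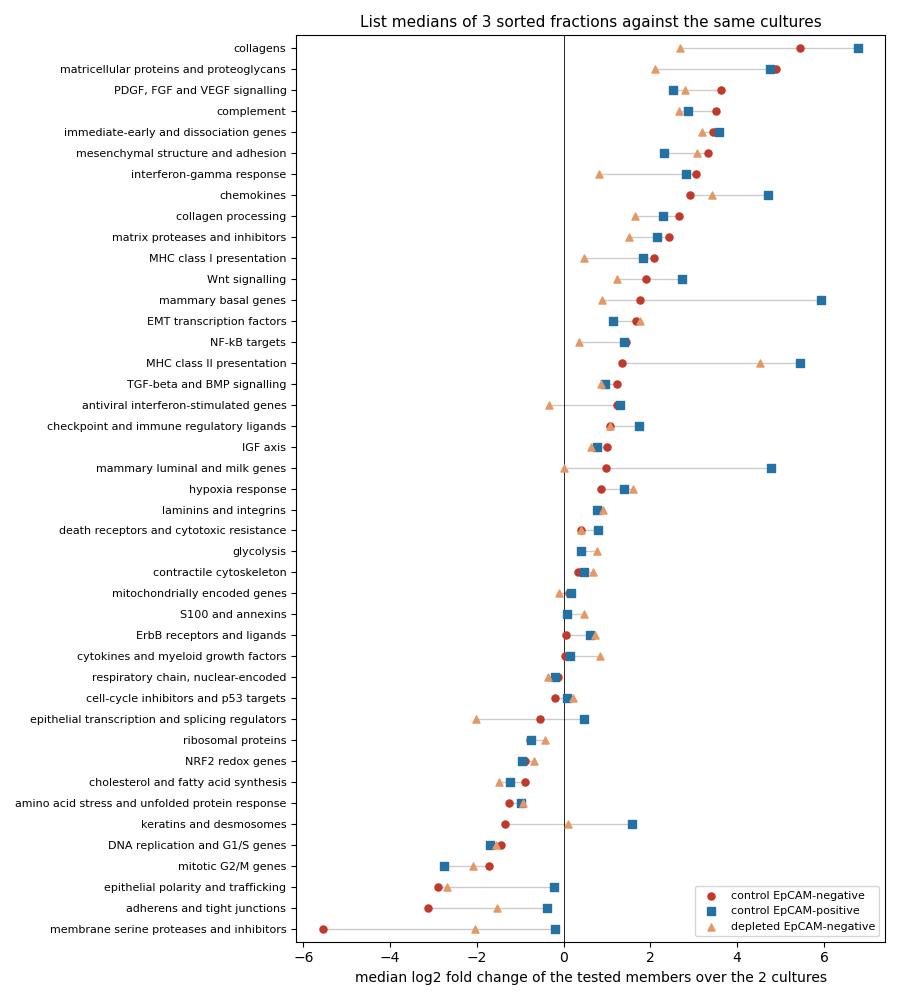
Median log2 fold change over culture (horizontal axis) of the tested members of 43 gene lists in control EpCAM-negative (red circles), control EpCAM-positive (blue squares) and depleted EpCAM-negative cells (orange triangles). For junctions the medians were −3.13, −0.38 and −1.53 in that order, while for immediate-early genes the 3 symbols nearly coincide.

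**Figure D5:**
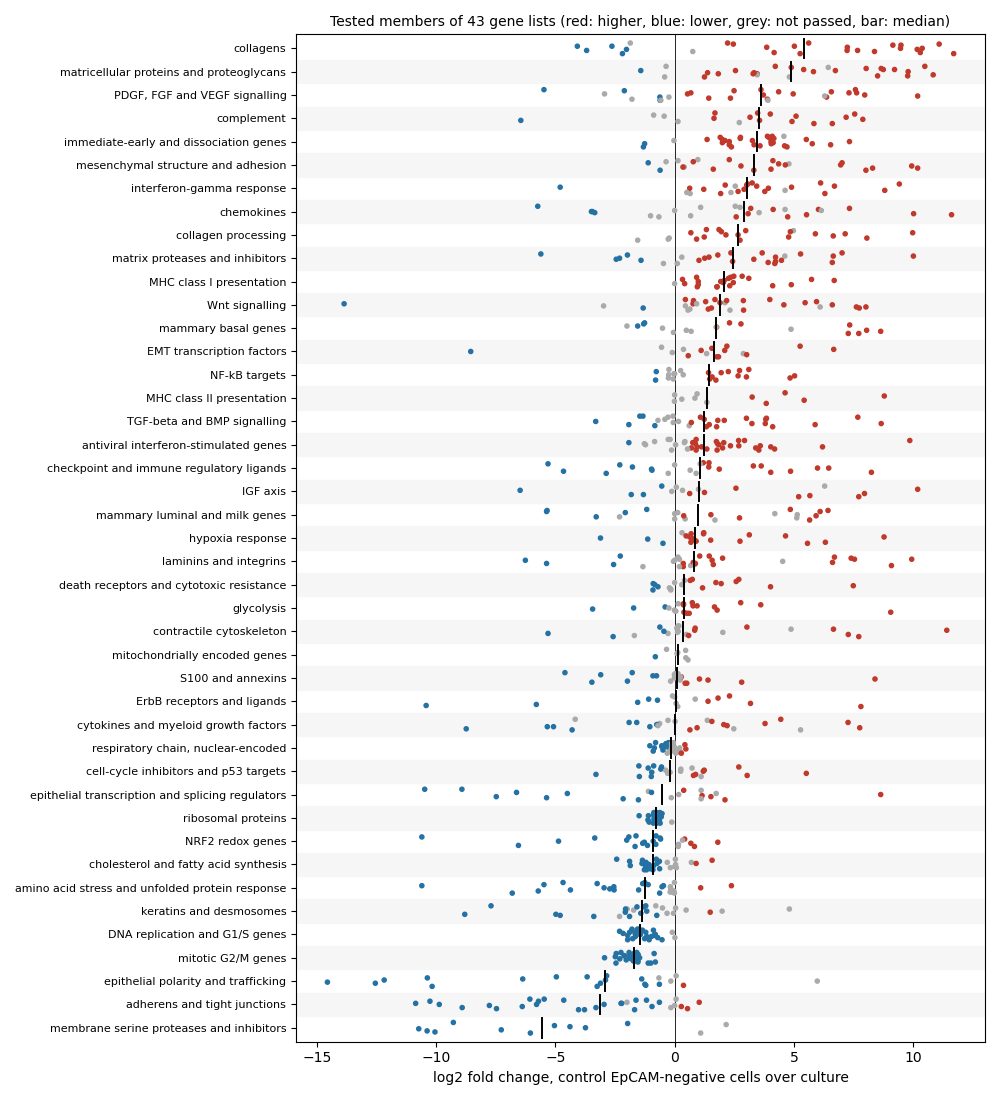
Log2 fold change of control EpCAM-negative tumour cells over culture (horizontal axis) for each tested member of the 43 lists, sorted by median (black bar). Red points were higher and blue points lower at an adjusted p under 0.05, and grey points did not pass. Collagens lie at the top with a median of 5.44 and membrane serine proteases at the bottom with −5.55.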

How the data were processed

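RNA was read by SMARTer and Nextera XT libraries and single reads of 50 bases. The authors deposited raw counts per gene for 26 libraries. Per the submitters' processing notes STAR, DESeq2 1.22.2 and the build mm9 were used, while no source used here names the counting program or its strand setting, so overlapping, antisense and near-identical genes are uncertain. Symbols were matched by Ensembl ID for 47224 of 47729 features. The deposited counts were fitted in edgeR 4.0.16 (R 4.3.3, limma 3.58.1) with TMM scaling, filterByExpr by group, 1 coefficient for each of 5 groups over all 26 libraries, and glmQLFTest. All p-values were adjusted over the 16637 tested features at a threshold of 0.05. Alternatives included DESeq2 1.42.0. Named genes were the 15 largest changes each way among genes without a predicted or Rik name, with an adjusted p under 0.05, a higher group mean of 10 CPM or more and no overlap between groups, up to 4 of each list with the smallest p, a set named whether or not it passed, and the largest shares of counts. The members, the 43 lists (997 genes) and the marker lists were chosen with earlier results of these data known. Some listed names were replaced by the symbols under which the annotation holds the same genes. Intervals are exact at 95% and cover counting error only. The scripts were tested on simulated counts.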

Additional observations from a re-analysis of the deposited data

Results flagged for a closer look

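In the groups of 6 libraries 177 levels and scores were checked for a library that stood apart from the other 5 by Dixon's ratio, the gap to the nearest library over the range of the group, at its 95% critical value. There were 15, where that value by its definition marks about 1 in 20 groups by chance. Tumour library 5 stood apart upward for the complement proteases C1ra (121.7 CPM) and C1s1 (185.3 CPM) and for mt-Nd6 (164.3 CPM), and downward for Erbb2 (50.05 CPM). Tumour library 3 was the highest for Ms4a4d (36.42 CPM) and Mthfd2 (20.47 CPM) and the lowest for Itgb5 (450.7 CPM), Pkp3 (22.16 CPM) and Sparc (2386.0 CPM). Tumour library 1 was the highest for F13a1 (118.7 CPM) and Psmb9 (99.92 CPM), tumour library 4 for P4ha1 (656.3 CPM) and Rb1 (179.1 CPM), and tumour library 2 for Uqcrq (105.6 CPM). The EMT score of EpCAM-positive library 1 of control tumours was 1.97, above the other 5 of its group.

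Cdh1, Erbb2 and Krt14 changed in opposite directions from culture in the EpCAM-negative and EpCAM-positive cells of control tumours. Each was lower than culture in the former and higher in the latter. The direct edgeR test between the fractions gave log2 fold changes of −2.49 for Cdh1, −1.13 for Erbb2 and −4.31 for Krt14, all past the adjusted threshold.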

How the results depend on the processing

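No result reversed. The counts of features against culture kept within 1.5 times under every alternative run, with 6498 and 6708 of 8433 called without culture 1 or culture 2. Among 239 named genes and 3812 comparisons, 24 calls in 7 genes were lost and 10 in 6 genes were gained. Those lost were mostly in the epithelial regulators Gata3 (13) and Elf5 (4). The log2 fold change of Gata3 was small (0.38), and Elf5 was low, with means of 0.724 CPM in culture and 2.07 CPM in the tumour cells. Of 86 list counts, 19 moved by over 1.5 times in 43 of 1376 comparisons, and those from leaving out 1 library stand beside the counts above. The others were as follows. With the DESeq2 Wald test, rises of keratins and desmosomes went from 1 to 2. With no filter, with at least 1 CPM in 2 libraries, with the replicate block and without Spp1, rises of polarity genes went from 1 to 0. With at least 1 CPM in 2 libraries, with only the groups compared and without Spp1, falls of collagen processing genes went from 0 to 1. With the replicate block, falls of matricellular and of complement genes went from 1 to 0, rises of nuclear respiratory chain genes from 3 to 5 and rises of mitochondrially encoded genes from 0 to 1. With only the groups compared, falls of complement genes went from 1 to 0, and mitochondrially encoded genes from 0 rises and 1 fall to 2 and 2. The EMT difference of 6.72 became 7.22 with a prior count of 0.5 and 4.96 with keratins and desmosomes in place of junctions, and lay between 6.65 and 6.77 without 1 library. Without Spp1, an alternative chosen after seeing the data, the median over all features went from 0.08 to 0.01 and the share of calls that were higher from 52.3% to 48.5%. Lower calls also outnumbered higher ones with at least 1 CPM in 2 libraries (4221 lower and 4015 higher), without tumour library 1 (4209 and 4076) and without tumour library 2 (4204 and 4118).

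The replicate numbers were not taken to pair libraries. Deviations of same-numbered libraries correlated at 0.05 to 0.172 between the 2 control fractions, where all 6 EpCAM-negative libraries correlated best with their own number, and at −0.029 to 0.049 with the depleted cells, where 0 of 6 did. With the replicate block 4187 features were higher and 3792 lower than culture (1674 and 937 at 4-fold), 4632 in place of 4634 differed from EpCAM-positive cells and 7339 in place of 7501 from depleted EpCAM-negative cells.

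With 2 cultures, left at 1 when either is omitted, the spread in culture is taken from the other groups. The 2 cultures differed by more than counting noise (chi-square per degree of freedom 18.89, against 37.25 to 109.4 between tumour libraries), so they are not 1 library deposited 2 times, which does not show that they were grown separately.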
